A study of Caenorhabditis elegans with 12 samples.

Results

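MicroRNAs of worms fed glucose together with the solvent DMSO were compared with those of untreated worms. The comparison takes 6 of the 12 small RNA libraries of the series, 3 of the DMSO + Glu group and 3 of the Control group, chosen by their treatment labels alone. All 263 distinct mature miRNA names in the count table were considered, and every name had counts in at least 1 of the 6 libraries. Where a name was listed more than once, the entry with the higher total was used. The worms of both groups were wild-type N2 on NGM plates with OP50 bacteria at 20 °C, and treatment started at the L4 larval stage. DMSO + Glu worms received 2% glucose with 0.1% DMSO, and Control worms received neither. RNA was taken from whole worms after 5 d, with progeny removed by letting the adults settle. The whole series also holds a Glu group with 2% glucose alone. Its 3 libraries are used here for values side by side and for a direct test against DMSO + Glu. A further group, Nar + Glu, received 25 μM naringin with 2% glucose and 0.1% DMSO. Its 3 libraries enter here, with those of Glu, only where all 12 libraries are fitted or scaled together. No group with DMSO alone was analysed here, so an effect of glucose and an effect of DMSO cannot be told apart in this comparison. No source used here says whether replicates came from separate cultures, so p-values measure the spread between these libraries, which may be technical.

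A miRNA is a short RNA cut from a hairpin precursor. One strand of the hairpin, the guide, is loaded into an Argonaute protein and represses mRNAs that match its first bases, while the opposite strand, the passenger, is mostly degraded. The names 5p and 3p mark the arm of the hairpin a strand comes from. In *C. elegans*, lin-4 and let-7 were the founding miRNAs and time the passage through larval stages to the adult, and the miR-35 and miR-51 families are needed in the embryo.

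Library depth differed between the groups. Total counts were 3267311 to 3849726 in DMSO + Glu and 4990586 to 5868806 in Control, with no overlap (exact two-sided permutation, p = 0.1, below which 3 against 3 libraries cannot go). Names with at least 10 counts numbered 209 to 216 in DMSO + Glu and 220 to 230 in Control. The muscle miRNA miR-1-3p took 38.5%, 40.8% and 39.9% of the counts in the DMSO + Glu libraries, against 38.1%, 48.2% and 44.9% in the Control libraries. Its share was 39.7% ± 1.17 in DMSO + Glu and 43.7% ± 5.14 in Control (SD, n = 3 each), and the groups overlapped (two-sided exact permutation test, p = 0.4). Markers of muscle, neurons, intestine, glia, embryo and epidermis were all present in every library. Levels below are in CPM, the usual unit in which each count is divided by the size of its library, here adjusted by the trimmed mean of M-values (TMM) over the 6 libraries. They are thus relative to the other miRNAs of a library, and in whole worms fewer cells of a type and less miRNA per cell cannot be told apart.

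Of the 220 miRNAs with enough counts to be tested, 49 (22.3%) had a Benjamini-Hochberg adjusted p under 0.05 in edgeR's quasi-likelihood test. Of these, 30 (13.6%) were higher in DMSO + Glu and 19 (8.64%) were lower. The log2 fold changes (log2FC, DMSO + Glu over Control) of those that rose ran from 0.36 to 1.38, and those of the miRNAs that fell from −0.38 to −0.95. The thresholds of the study's methods, a change of about 1.5-fold either way with an unadjusted p under 0.05, were passed by 26 miRNAs (11.8%), 11 higher (5%) and 15 lower (6.82%), and 19 miRNAs passed both rules. The median log2FC over all miRNAs tested was 0.05. The 3 DMSO + Glu libraries lay apart from the 3 Control libraries for 83 miRNAs (37.7%), above them for 45 (20.5%) and below them for 38 (17.3%). This held for 48 of the 49 called miRNAs, and miR-63-5p, named here after its values were seen, was the exception. DESeq2 also called 49 miRNAs, 27 higher and 22 lower. The count depended on single libraries, with 24 calls without DMSO + Glu replicate 3 and 59 without Control replicate 1.

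**Figure D1:**
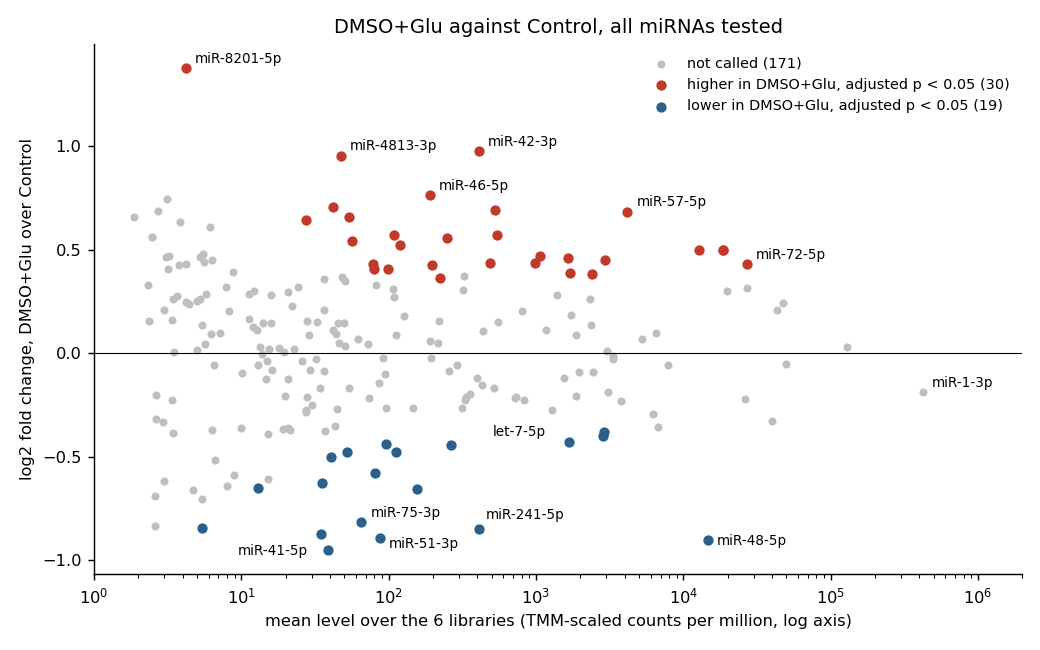
Each point is a miRNA, with its mean level over the 6 libraries (TMM-scaled CPM, log axis) and its log2 fold change of DMSO + Glu over Control. Red points are the 30 miRNAs called higher in DMSO + Glu, blue points the 19 called lower and grey points the 171 not called, and the most abundant miRNA, miR-1-3p, sits at −0.19.

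Among the let-7 sisters, which share the let-7 seed, 4 of 7 fell. The let-7 miRNA itself drives the last larval step to the adult, and miR-48, miR-84 and miR-241 act together at an earlier larval step. All 7 members in the table were tested, and 0 were called higher, against 13.6% of all miRNAs, and 4 lower, against 8.64% called lower among all miRNAs. The log2FC was below 0 for 7 of 7, where 43.6% of all miRNAs were below 0, with a median of −0.40. Summed over the 7 members, the level was 14299, 14462 and 14619 CPM in the DMSO + Glu libraries, against 20379, 25234 and 28857 CPM in the Control libraries. The DMSO + Glu libraries were thus close to each other, and the Control libraries were all higher and more spread. Most of each sum was miR-48-5p, with a mean of 10222 CPM in DMSO + Glu and 19073 CPM in Control.

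The most abundant sister, miR-48-5p, had 10046, 10041 and 10579.6 CPM in DMSO + Glu, against 15123, 19219 and 22876 CPM in Control. Every DMSO + Glu library was below every Control library, and the log2FC was −0.90 (SE 0.151, adjusted p = 0.000661 in edgeR's quasi-likelihood test). Its neighbour in the genome, miR-241-5p, had 279.8, 292 and 308 CPM in DMSO + Glu, against 415, 503 and 664 CPM in Control. The groups did not overlap, and the log2FC was −0.85 (SE 0.147, edgeR adjusted p = 0.000691). Both hairpins lie on the minus strand of chromosome V (WBcel235, chrV:14364412-14366283), between protein-coding genes. The calls of miR-48-5p and miR-241-5p held without each library in turn and under each other setting tried. Their scarce opposite arms were lower by less, with a log2FC of −0.27 for miR-48-3p and −0.36 for miR-241-3p, and neither was called.

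The other 2 calls were smaller. For miR-84-5p, whose hairpin lies on chromosome X, the level was 2434, 2606 and 2354 CPM in DMSO + Glu, against 3004, 3153 and 3592 CPM in Control. No libraries overlapped, with a log2FC of −0.40 (SE 0.121, edgeR adjusted p = 0.0249). The let-7-5p level was 1482, 1459 and 1314 CPM in DMSO + Glu, against 1765, 2296 and 1663 CPM in Control. It was again lower in every DMSO + Glu library, with a log2FC of −0.43 (SE 0.133, edgeR adjusted p = 0.0271). These calls rested on single libraries and on the processing. Neither was called without DMSO + Glu replicate 3 or with total-count scaling, and miR-84-5p was not called without Control replicate 3. The call of let-7-5p was also lost without Control replicate 2 and with all 12 libraries in 1 fit. The scarce sisters miR-793, miR-794-5p and miR-795-5p had means of 35.2, 14.0 and 12.7 CPM in DMSO + Glu and 37.3, 15.2 and 13.2 CPM in Control, with overlap between the groups for each. The other founding miRNA did not go with them. For lin-4-5p the level was 520.3, 645 and 568 CPM in DMSO + Glu and 465, 551 and 544 CPM in Control (log2FC 0.15, edgeR adjusted p = 0.393), and its relative miR-237-5p was at −0.01.

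**Figure D2:**
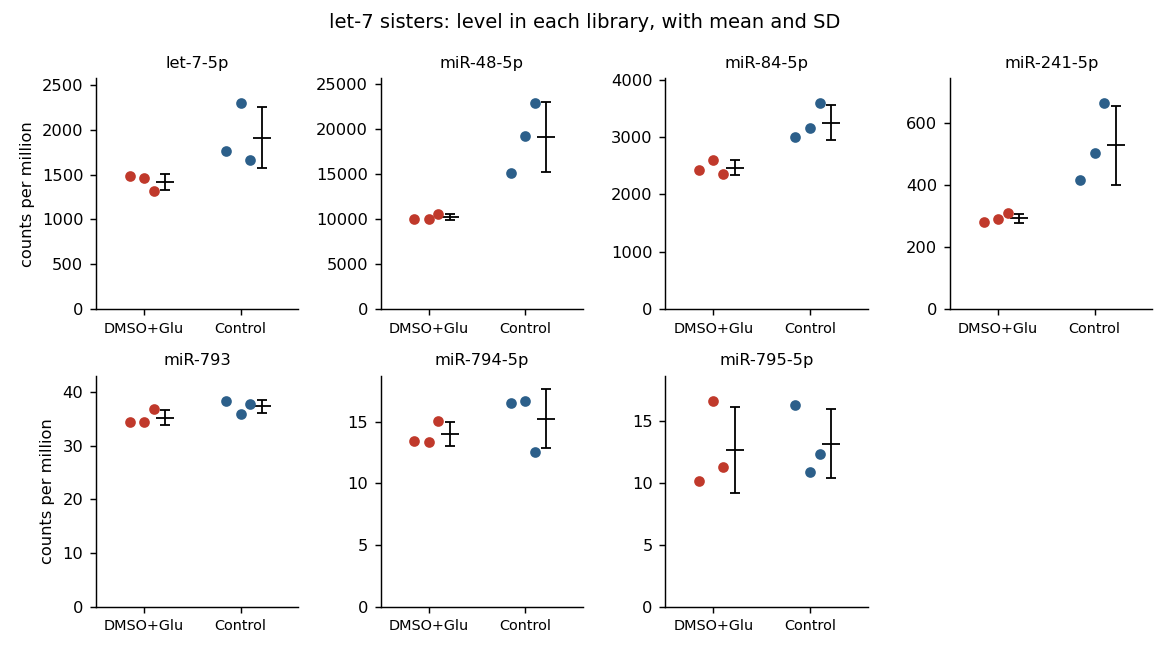
Levels of the 7 let-7 sisters in CPM, each axis starting at 0. Red points are the 3 DMSO + Glu libraries, blue points the 3 Control libraries, and bars give the mean and SD beside each group; let-7-5p, miR-48-5p, miR-84-5p and miR-241-5p were lower in every DMSO + Glu library, while the 3 scarce sisters overlapped.

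In the miR-35 family, 2 of 8 guides were called higher and 3 of 8 passengers lower. This family of 8 related hairpins is loaded in oocytes and embryos, where it is required for embryonic development, and its 3p arms are known as the guides. For miR-41, however, the 5p arm was the commoner in the Control libraries, so the name passenger rests there on the known role of the arm and not on these counts. Beside the 2 guides called higher (13.6% of all miRNAs were) 0 were called lower, and 7 had a log2FC above 0 (56.4% of all miRNAs did), with a median of 0.29. Beside the 3 passengers called lower (8.64% of all miRNAs were) 0 were called higher, and 7 had a log2FC below 0, against 43.6% of all miRNAs, with a median of −0.48. Summed over the family, the guides had 159223, 119045 and 130442 CPM in DMSO + Glu, against 125935, 113755 and 105554 CPM in Control, which overlapped. The passengers, far scarcer, had 197, 187 and 189 CPM in DMSO + Glu, against 291, 260.3 and 301 CPM in Control, with no overlap. The divergence of arms in this family was known from earlier results of these data and is given as values.

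The guide miR-42-3p had the smallest p of all miRNAs tested. Its level was 498, 535 and 598 CPM in DMSO + Glu, against 275, 283 and 272 CPM in Control. Every DMSO + Glu library was well above the Control libraries, and the log2FC was 0.97 (SE 0.118, edgeR adjusted p = 3.2e-05). Its hairpin is apart from the others (WBcel235, chrII:11889811-11889905, plus strand), in a cluster with mir-43 and mir-44. The 7 remaining hairpins stand close together at chrII:11537608-11538404, in an intron of Y62F5A.9 on the opposite strand. Of their guides, only miR-38-3p was called, with 1754, 2219 and 1817 CPM in DMSO + Glu, against 1426, 1463 and 1535 CPM in Control (log2FC 0.39, SE 0.123, edgeR adjusted p = 0.0285). That call was lost in 8 of 18 alternatives, among them leaving out DMSO + Glu replicate 2 or 3 or Control replicate 1 or 2. The guides miR-39-3p (log2FC 0.31, edgeR adjusted p = 0.147) and miR-41-3p (0.32, adjusted p = 0.165) lay above Control in every DMSO + Glu library but were not called. The abundant guides miR-35-3p and miR-37-3p overlapped between the groups, with log2FC of 0.24 and 0.21. So did miR-40-3p at 0.26 and miR-36-3p at −0.03. Of the 8 guides, 4 thus lay above Control without overlap, against 20.5% of all miRNAs. Guides of this family are near-identical in sequence over part of their length, and the sources used here do not say how reads matching several of them were shared out.

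Among the passengers, miR-39-5p had 29.9, 22.2 and 21.7 CPM in DMSO + Glu, against 49.6, 40.5 and 45.5 CPM in Control (log2FC −0.87, SE 0.159, edgeR adjusted p = 0.000967). For miR-41-5p the level was 31.6, 20.6 and 27.5 CPM in DMSO + Glu, against 61.3, 37.1 and 55.4 CPM in Control (log2FC −0.95, SE 0.190, edgeR adjusted p = 0.00205). For miR-40-5p it was 65.1, 66.1 and 63.8 CPM in DMSO + Glu, against 99.8, 94.3 and 97.2 CPM in Control (log2FC −0.58, SE 0.121, edgeR adjusted p = 0.00283). None of these 3 overlapped between the groups, and their calls held under each of the 18 alternatives. The passengers miR-37-5p (log2FC −0.61, edgeR adjusted p = 0.0513) and miR-38-5p (−0.39, adjusted p = 0.146) were also lower in every DMSO + Glu library but were not called. The rest, miR-35-5p, miR-36-5p and miR-42-5p, overlapped, with log2FC of 0.03, −0.21 and −0.37.

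The ratio of arms within a library does not depend on how libraries are scaled. The log2 ratio of the arms (5p over 3p) was lower in DMSO + Glu for 8 of 8 precursors, by −0.17 to −1.36 with a median of −0.80, and 5 of them did not overlap. The largest differences were those of miR-42, with a mean of −6.63 in DMSO + Glu and −5.27 in Control, of miR-41, with −0.03 in DMSO + Glu and 1.22 in Control, and of miR-39, with −10.2 in DMSO + Glu and −9.06 in Control. Taken as 1 value per library, the median over the 8 precursors of each ratio minus its own mean, the family stood at −0.59, −0.17 and −0.47 in DMSO + Glu, against 0.29, 0.39 and 0.57 in Control. In the 68 other precursors with enough counts in both arms, the log2 ratio of scarcer over commoner arm was lower for 34 and higher for 34, with a median difference of −0.01, and lay below Control without overlap for 13. Measured in that way, the miR-35 family had 7 precursors lower and 1 higher, which was miR-41 at 1.25, with a median of −0.76, and 4 lay below Control without overlap. The family value changed little when all libraries were thinned to the total of the shallowest (−0.82, against −0.83 unthinned). The Glu libraries were set against the same Control libraries by the ratio of 5p over 3p. It differed by −1.16 for miR-42, −0.61 for miR-41 and −1.21 for miR-39. The other differences in Glu were −0.55 for miR-35, −0.88 for miR-36, −1.003 for miR-37, −1.03 for miR-38 and −1.08 for miR-40. In DMSO + Glu these were −0.23, −0.17, −0.76, −0.76 and −0.83 in the same order, and −1.18 for miR-39. Only miR-42 and miR-41 were thus further from Control in DMSO + Glu than in Glu, which was not tested.

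**Figure D3:**
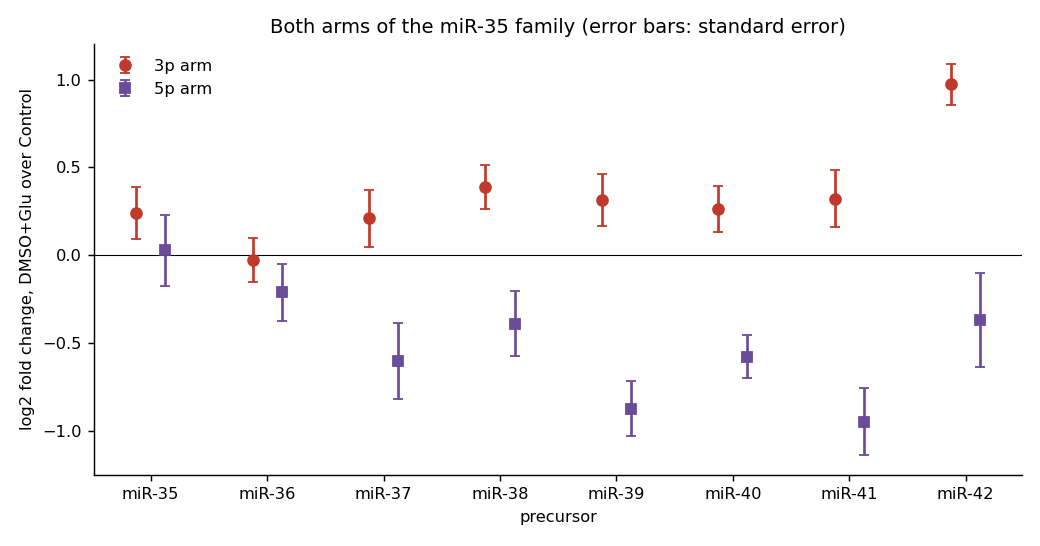
Log2 fold change of DMSO + Glu over Control for the 3p arm (red circles, guides) and the 5p arm (purple squares, passengers) of each of the 8 miR-35 family precursors, with bars of 1 standard error. The 3p arms run from −0.03 to 0.97 and the 5p arms from −0.95 to 0.03, and the 3p arm is above the 5p arm for each precursor.

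Both families serve as markers of developmental stage. Of the 9 embryo and germline markers, which are the 8 miR-35 guides and miR-51-5p, 2 were called higher and 0 lower, where 13.6% and 8.64% of all miRNAs were, with a sum of 126029 to 165938 CPM in DMSO + Glu and 111415 to 132636 CPM in Control. Of the 5 adult and late larval markers, which are lin-4-5p and the 4 abundant let-7 sisters, 4 were called lower and 0 higher, where 8.64% and 13.6% of all miRNAs were, with a sum of 14762 to 15124 CPM in DMSO + Glu and 20773 to 29339 CPM in Control. Most of the adult and late larval sum was miR-48-5p. No marker of either list was at 0 in any library. The part of embryos carried in or beside the adults in any of these values was not tested.

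Beyond these families, the largest rises were spread over single hairpins. For miR-4813-3p, from a hairpin that overlaps an exon of idhg-1 on the same strand (chrIII:4571640-4571716), the level was 51.6, 70.0 and 65.5 CPM in DMSO + Glu, against 30.4, 30.6 and 35.4 CPM in Control. The groups were well apart, with a log2FC of 0.95 (SE 0.146, edgeR adjusted p = 0.000397), while its other arm, miR-4813-5p, was at −0.06. For miR-46-5p, on chromosome III, the level was 199, 259 and 259 CPM in DMSO + Glu, against 136, 136 and 150.1 CPM in Control (log2FC 0.76, SE 0.131, edgeR adjusted p = 0.000673). This is the scarcer arm of its hairpin, and the commoner arm miR-46-3p had 3064 ± 362 CPM in DMSO + Glu and 3041 ± 36.7 CPM in Control (SD, n = 3 each), a log2FC of 0.01. The abundant miR-57-5p, known for its part in posterior cell fates of the embryo, had 4538, 5694 and 5194 CPM in DMSO + Glu, against 2751, 3256 and 3607 CPM in Control. It too had no overlap, with a log2FC of 0.68 (SE 0.135, edgeR adjusted p = 0.00205).

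The mirtron miR-62, spliced out as an intron of ugt-50 (chrX:12692608-12692665, plus strand), had 63.7, 65.3 and 68.4 CPM in DMSO + Glu, against 33.6, 46.3 and 45.0 CPM in Control (log2FC 0.66, edgeR adjusted p = 0.00362). For miR-249-3p, on chromosome X, the level was 41.5, 56.9 and 56.5 CPM in DMSO + Glu, against 31.2, 32.6 and 31.2 CPM in Control (log2FC 0.71, edgeR adjusted p = 0.00283). Both arms of miR-86, in an intron of Y56A3A.7 on chromosome III, rose together. The 3p arm had 572, 713 and 663 CPM in DMSO + Glu, against 369, 477 and 467 CPM in Control (log2FC 0.57), and the 5p arm had 1242, 1188 and 1290.1 CPM in DMSO + Glu, against 912, 954 and 824 CPM in Control (log2FC 0.47). Their edgeR adjusted p-values were 0.00493 and 0.00747. The call of miR-86-5p was lost without DMSO + Glu replicate 3, and that of miR-86-3p with all 12 libraries in 1 fit. Smaller rises without overlap were those of miR-1022-5p (log2FC 0.57), miR-2-3p (0.56) and miR-355-5p (0.52), with edgeR adjusted p from 0.00445 to 0.0056. The call of miR-1022-5p was lost without DMSO + Glu replicate 3 and that of miR-355-5p without Control replicate 2.

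The largest fold change belonged to a very scarce miRNA. For miR-8201-5p, from an intron of the linker histone gene hil-2 on chromosome IV, the level was 4.39, 6.67 and 7.25 CPM in DMSO + Glu, against 1.50, 3.18 and 2.33 CPM in Control. The log2FC was 1.38 with an SE of 0.328 (edgeR adjusted p = 0.0062). At a similarly low level, miR-255-5p had a log2FC of 0.75 and passed the thresholds of the study's methods without passing the adjusted p (0.13 in edgeR). Of the 44 tested miRNAs with a mean of at least 1000 CPM, 14 were called, against 10 of the 114 with a mean under 50 CPM. Over all 220 miRNAs tested, 49 (22.3%) were called.

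Among the falls outside the let-7 and miR-35 families, miR-51-3p had the smallest p. Its level was 62.3, 51.4 and 69.0 CPM in DMSO + Glu, against 110.1, 126 and 103 CPM in Control. The groups were far apart, with a log2FC of −0.89 (SE 0.140, edgeR adjusted p = 0.000397). It is the passenger of miR-51-5p, which had 6754 ± 214 CPM in DMSO + Glu and 6306 ± 422 CPM in Control (SD, n = 3 each; log2FC 0.10). For miR-75-3p the level was 61.0, 36.7 and 43.8 CPM in DMSO + Glu, against 81.4, 87.7 and 80.2 CPM in Control (log2FC −0.82, SE 0.159, edgeR adjusted p = 0.00189). For miR-253-3p, in an intron of F44E7.5 on chromosome V, it was 119, 125 and 119 CPM in DMSO + Glu, against 156, 181 and 235.0 CPM in Control (log2FC −0.66, edgeR adjusted p = 0.00376). The passenger miR-70-5p, in an intron of pmp-5, had 24.4, 27.5 and 31.3 CPM in DMSO + Glu, against 40.8, 39.3 and 48.2 CPM in Control (log2FC −0.63, edgeR adjusted p = 0.00648). Its guide miR-70-3p was among the 5 most abundant miRNAs and overlapped between the groups, with a log2FC of −0.05. The tightest groups were those of miR-5592-5p, with 33.5, 33.1 and 33.9 CPM in DMSO + Glu, against 47.7, 47.4 and 47.0 CPM in Control (log2FC −0.50, edgeR adjusted p = 0.0119). Its call was lost with total-count scaling and with all 12 libraries in 1 fit.

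**Figure D4:**
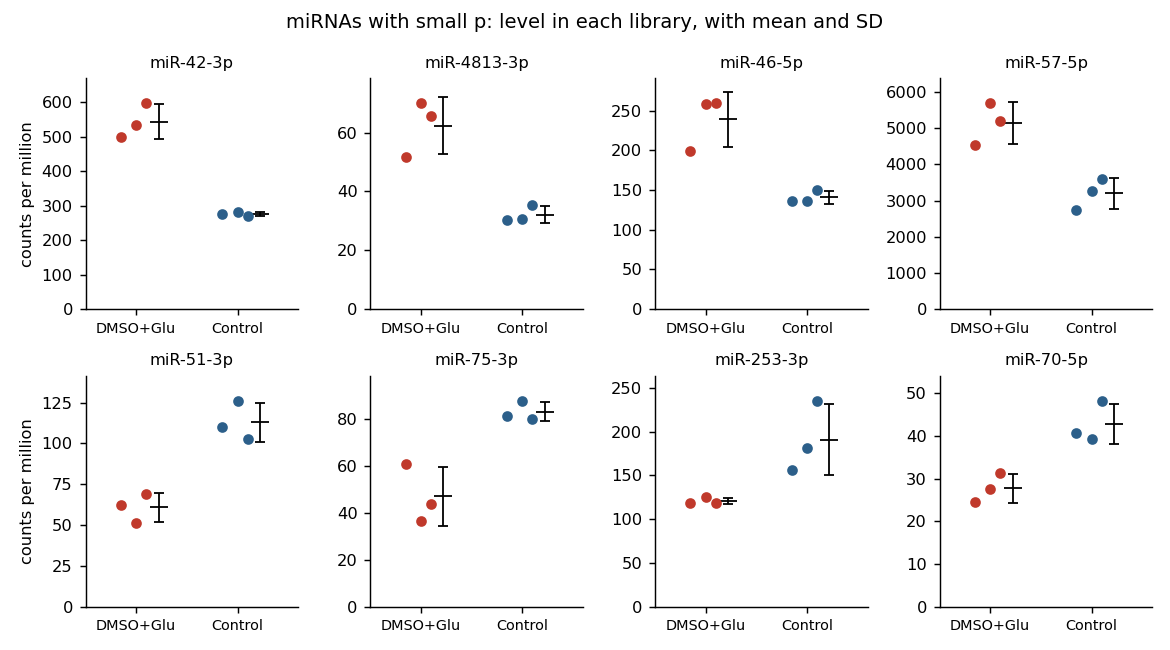
Levels in CPM for 4 miRNAs called higher (miR-42-3p, miR-4813-3p, miR-46-5p, miR-57-5p) and 4 called lower in DMSO + Glu (miR-51-3p, miR-75-3p, miR-253-3p, miR-70-5p), each axis starting at 0. Red points are DMSO + Glu libraries, blue points Control libraries and bars the mean and SD of 3 libraries; no panel shows overlap.

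Neighbouring hairpins did not always move alike. In the mir-42 cluster (chrII:11889811-11890118) the 3p arms of all 3 hairpins were above Control in every DMSO + Glu library, as 20.5% of all miRNAs were. Their log2FC were 0.97 for miR-42-3p, 0.35 for miR-43-3p (edgeR adjusted p = 0.0777) and 0.50 for miR-44-3p. The counts of miR-44-3p are also those of miR-45-3p, whose hairpin lies outside this cluster. The 5p arms that were tested, miR-42-5p (log2FC −0.37) and miR-44-5p (−0.12), overlapped between the groups. In the mir-73 cluster (chrX:2368765-2372549), miR-73-3p rose (log2FC 0.38), miR-74-3p was at −0.09 and miR-75-3p fell (−0.82). The call of miR-73-3p was lost without any of 5 libraries in turn, all but Control replicate 3. It was also lost with total-count scaling, with a mean count of at least 100 and with libraries thinned to equal totals. Members of the mir-229 cluster (chrIII:2172452-2173206) and miR-63-3p of chromosome X, listed together as the miR-64 group (5p arms in the cluster), had a log2FC below 0 for 5 of 5, with a median log2FC of −0.22, 3 of 5 below Control without overlap and 0 called. Of all miRNAs, 43.6% had a log2FC below 0, 17.3% lay below Control without overlap and 22.3% were called. Among the 94 precursors with both arms in the table, both arms were called for 3. Of these arms, 91 commoner and 77 scarcer were tested, and 22.3% of all miRNAs were called. Whether 3 is more than unrelated arms would give was not tested. The arms of miR-86 and miR-45 both rose, whereas miR-72-5p rose and miR-72-3p fell. For miR-45 the rise of the 3p arm cannot be assigned to its own hairpin, since its counts are those of miR-44-3p. The call of miR-45-5p was lost in 11 of 18 alternatives, among them leaving out DMSO + Glu replicate 1 or 3, or Control replicate 2 or 3.

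Members of the miR-72 family, related in sequence to miR-31 of vertebrates, included the most abundant called miRNA. For miR-72-5p the level was 31734, 31113 and 29690.4 CPM in DMSO + Glu, against 20487, 24090.0 and 24159 CPM in Control (log2FC 0.43, edgeR adjusted p = 0.0287). Every DMSO + Glu library was higher, but the call was lost in 9 of 18 alternatives, among them leaving out any DMSO + Glu replicate, or Control replicate 1 or 2. Its passenger miR-72-3p had 42.8, 49.7 and 37.4 CPM in DMSO + Glu, against 59.0, 51.6 and 69.9 CPM in Control (log2FC −0.48, edgeR adjusted p = 0.0285). That call was lost without DMSO + Glu replicate 3 and without Control replicate 3. It was also lost with total-count scaling and with all 12 libraries in 1 fit. Identical counts were listed for miR-45-3p and miR-44-3p, so reads of these could not be separated. Their level was 20344, 25469 and 19818 CPM in DMSO + Glu, against 13035, 15482 and 17967 CPM in Control (log2FC 0.50, edgeR adjusted p = 0.0252). Leaving out DMSO + Glu replicate 2 or 3, or Control replicate 1 or 2, ended the call. So did all 12 libraries in 1 fit and thinning to equal totals.

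In the miR-51 family, which acts redundantly in embryos, 1 of 6 was called, against 22.3% of all miRNAs. This was miR-52-5p, with 15805, 15026 and 14359 CPM in DMSO + Glu, against 11365, 11443 and 9135 CPM in Control (log2FC 0.50, edgeR adjusted p = 0.0138), and the other members were between 0.09 and 0.20. Its call was lost without DMSO + Glu replicate 1 or 3. Of the 5 bantam family members in the table, known for abundance and for restraining TGF-beta signalling, 1 was called, again near the share of all miRNAs. This was miR-81-3p, with 3283, 3874 and 3067 CPM in DMSO + Glu, against 2391, 2409.8 and 2689 CPM in Control (log2FC 0.45, edgeR adjusted p = 0.0163). The call ended without DMSO + Glu replicate 2, or Control replicate 1 or 2. The far more abundant miR-58a-3p had 158743, 113897 and 117586 CPM in DMSO + Glu and 145143, 144905 and 91832 CPM in Control. It was not called, and its log2FC of 0.03 turned to −0.00458 with the size factors of DESeq2. Of the miR-2 family, miR-2-3p was the 1 of 4 called, a share also near the 22.3% of all miRNAs.

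Set against the 22.3% called among all miRNAs, markers of cell types and of lifespan were called 1 at a time or not at all. Of 5 neuronal markers, 1 was called higher, miR-790-5p, with 536, 627 and 524 CPM in DMSO + Glu, against 452, 377 and 416 CPM in Control (log2FC 0.44, edgeR adjusted p = 0.0163). That call was lost without DMSO + Glu replicate 2 or 3 and without Control replicate 2. It was also lost with total-count scaling and with libraries thinned to equal totals. The marker miR-791-3p, of neurons that sense CO2, had 3.29, 3.61 and 4.06 CPM in DMSO + Glu, against 5.64, 4.96 and 6.67 CPM in Control, past the thresholds of the study's methods with an edgeR adjusted p of 0.099. Markers of intestine (2), glia (1), epidermis (1) and muscle (1) had no call, with log2FC from −0.26 to 0.07. Of 7 miRNAs tied to lifespan, 6 were tested and 1 was called, miR-238-3p, which is needed for a normal lifespan. Its level was 2488, 2614 and 2440.4 CPM in DMSO + Glu, against 2950.0, 3044 and 3841 CPM in Control (log2FC −0.38, edgeR adjusted p = 0.0353). The call was lost without DMSO + Glu replicate 3 or Control replicate 3, with total-count scaling and with all 12 libraries in 1 fit. The lifespan-promoting miR-71-5p had 38665, 35104 and 32491 CPM in DMSO + Glu, against 38834, 40666 and 53914 CPM in Control. It was lower in every DMSO + Glu library, though only just between the replicates 1, and was not called (log2FC −0.33, edgeR adjusted p = 0.147). The nutrient-linked miR-235-3p was also below Control in each library and not called (log2FC −0.19, edgeR adjusted p = 0.237).

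The Glu libraries were set against the same Control libraries, so the 2 comparisons share samples and are given only side by side. Glu against Control had 19 miRNAs of 223 with an edgeR adjusted p under 0.05, 8 higher and 11 lower. For miR-42-3p the log2FC was 0.97 in DMSO + Glu and 0.80 in Glu, for miR-4813-3p 0.95 and 0.87, for miR-51-3p −0.89 and −0.85, and for miR-48-5p −0.90 and −0.76, each against Control. Values were further apart for let-7-5p, with −0.43 in DMSO + Glu and −0.04 in Glu, and for miR-86-3p, with 0.57 in DMSO + Glu and −0.13 in Glu. All these pairs are examples. Others also differed, such as miR-75-3p (−0.82 in DMSO + Glu and −0.41 in Glu), miR-44-3p (0.50 and 0.11) and miR-8201-5p (1.38 and 0.24). For miR-40-5p the change was larger in Glu (−0.58 in DMSO + Glu and −0.89 in Glu). The direct test of DMSO + Glu against Glu called 0 of 215 miRNAs at an adjusted p under 0.05 in edgeR's quasi-likelihood test, while 22 had an unadjusted p under 0.05. DESeq2 called 0 and edgeR's exact test 1. Among the 49 miRNAs called between DMSO + Glu and Control, 5 had an unadjusted p under 0.05 in that direct test. This share is like that of the 22 among all 215 miRNAs tested there. The 5 are named here after their values were seen.

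These were miR-8201-5p (log2FC of DMSO + Glu over Glu 1.08, SE 0.280), miR-86-3p (0.64, SE 0.238), miR-1817 (−0.80, SE 0.292), let-7-5p (−0.44, SE 0.156) and miR-5592-5p (−0.46, SE 0.200), with edgeR adjusted p from 0.279 to 0.459. All were chosen by tests of DMSO + Glu against Control and against Glu, which share the DMSO + Glu libraries. That DMSO + Glu stands apart from both other groups thus largely follows from the choice. On a common scale over the 12 libraries, let-7-5p had 1487 ± 89.9 CPM in DMSO + Glu, 2058 ± 346 CPM in Glu and 2060.4 ± 327 CPM in Control (SD, n = 3 each). The mean of miR-86-3p was 680.5 ± 68.1 CPM in DMSO + Glu, 444 ± 167 CPM in Glu and 473 ± 58.3 CPM in Control (SD, n = 3 each), and 1 of the Glu libraries reached the DMSO + Glu range. For miR-5592-5p the values were 35.1 ± 0.906 CPM in DMSO + Glu, 49.2 ± 13.6 CPM in Glu and 51.3 ± 1.16 CPM in Control (SD, n = 3 each), with 1 Glu library as low as DMSO + Glu.

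**Figure D5:**
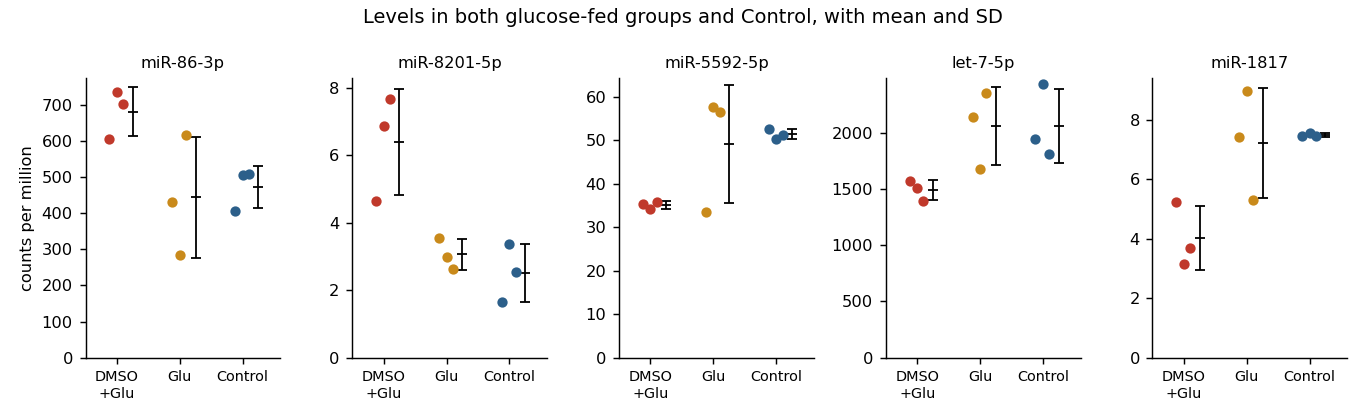
Levels in CPM, scaled over the 12 libraries, of the 5 called miRNAs with the smallest unadjusted p between DMSO + Glu and Glu. This choice itself sets DMSO + Glu apart from both other groups. Red points are DMSO + Glu, amber points Glu and blue points Control libraries, with the mean and SD of 3; miR-8201-5p has means of 6.40, 3.06 and 2.52 CPM in these groups and miR-1817 means of 4.02, 7.23 and 7.48 CPM.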

How the data were processed

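The authors trimmed reads with cutadapt 1.14 (version per the submitters' processing notes), quantified miRNAs with mirdeep2 and deposited raw read counts per mature miRNA, unnormalized and with replicates apart. The labels name a poly(A) selection before the small RNA kit. The miRBase release and the handling of reads matching several hairpins are not stated in these sources. The table had 268 entries for 263 names. Its values equalled the per-sample counts in 12 of 12 libraries. Replicates differed by far more than counting noise (chi-square per degree of freedom 75.2 to 770), so each counted once.

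The 3 DMSO + Glu and 3 Control libraries were fitted with edgeR 4.0.16 (R 4.3.3), with TMM scaling, filterByExpr (minimum count 10) and glmQLFTest, and p-values were adjusted over the 220 miRNAs tested. SE, used as the standard error of the log2FC, was derived from the test as the absolute log2FC divided by the square root of its F statistic. The procedure was tested on simulated data with planted changes larger than most of those called here, so smaller changes were not covered. Single values were compared by two-sided exact permutation over the 10 splits. Arm ratios took a pseudocount of 0.5 and precursors with a mean count of at least 10 in both arms. Positions are those of the WBcel235 annotation (RefSeq for hairpins, Ensembl for host genes), matched for 235 names. Plots used matplotlib 3.10.9.

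The miRNAs named are the 10 smallest p in each direction, the 5 largest changes in each direction past the study's thresholds without overlap, the 5 most abundant, list members, and the opposite arms of these. The comparison and lists were chosen with earlier results of these data known. Alternatives were DESeq2 1.42.0 and its size factors, total-count scaling, a stricter filter (mean count of at least 100) or none, the exact test of edgeR, a fit of all 12 libraries, a block for the replicate number, thinning to 3267311 counts, no miR-1-3p, other treatments of repeated or identical entries, no fold threshold, and each library left out in turn. Other RNA classes of the study were not analysed here.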

Additional observations from a re-analysis of the deposited data

How the results depend on the processing

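The 49 calls at an adjusted p under 0.05 became 30 (21 higher, 9 lower) with total-count scaling, and 24 to 59 with each library left out in turn, lowest without DMSO + Glu replicate 3 and highest without Control replicate 1. Other alternatives gave 34 to 55. The balance of directions, 30 higher and 19 lower, turned to 19 higher and 33 lower with libraries thinned to equal totals, to 23 and 26 with a mean count of at least 100, and to 22 and 37 without Control replicate 1, while the median log2FC of all miRNAs moved from 0.05 to −0.04, −0.04 and −0.05. The 26 miRNAs past the thresholds of the study's methods became 15 with a mean count of at least 100 and 74 with no fold threshold, and 18 to 34 with a library left out. Of the 49 called miRNAs, 18 kept the call under every alternative that tested them (9 higher, 9 lower), 20 kept it whichever library was left out, and 0 changed sign. Over the 40 miRNAs named by p, fold, abundance or list, 631 of 711 alternative values kept direction and side of the threshold, 63 lost the call, 9 gained it and 8 changed direction. Those 8 were all of the uncalled miR-58a-3p (log2FC 0.03), which was −0.00458 with DESeq2 size factors, −0.00457 with DESeq2, −0.00510 with no filter, −0.0439 with a mean count of at least 100, −0.0899 thinned, −0.00476 without miR-1-3p, and from −0.18 to 0.11 with a library left out. The miR-35 family arm ratio ran from −0.93 to −0.72 over its alternatives, and the miR-1-3p share difference of −4.02 percentage points from −6.83 to −1.79 with a library left out. The cause of these changes was not tested. With the replicate number as a replicate block, 55 miRNAs were called. Same-numbered libraries had deviations that correlated at 0.34, 0.02 and 0.05, and DMSO + Glu replicate 2 correlated best with Control replicate 3 (0.29), so the numbers were not taken as pairs. The lower depth of the DMSO + Glu libraries limits scarce miRNAs such as miR-8201-5p and miR-1817.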

Other observations

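Names numbered 1000 and above, which were annotated later, numbered 71 in the table, of which 41 were tested. Of these, 3 were called higher and 2 lower, and 29 had a log2FC above 0, with a median of 0.23. Over all miRNAs tested, 13.6% were called higher, 8.64% were called lower and 56.4% had a log2FC above 0, with a median of 0.05.

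Arms were also split by abundance, with the same shares over all miRNAs for comparison. Of 91 tested commoner arms, 18 were called higher and 9 lower, with a median log2FC of 0.03. Of 77 tested scarcer arms, 5 were called higher and 8 lower, with a median of −0.00. Of 52 tested miRNAs with no second arm in the table, 7 were called higher and 2 lower, with a median of 0.21.

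The passenger of miR-253-3p, miR-253-5p, had 5.49, 3.33 and 3.48 CPM in DMSO + Glu, against 6.58, 6.95 and 6.67 CPM in Control. It was lower in every DMSO + Glu library, as its guide was, and was not called (log2FC −0.71, SE 0.270, adjusted p = 0.0717 in edgeR's quasi-likelihood test).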
